A study of Homo sapiens with 18 samples.

Results

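The mRNAs described here encode the p53 inhibitors MDM2 and MDM4, 5 inhibitors of cyclin-dependent kinases (CDKN1A, CDKN1B, CDKN1C, CDKN2C and CDKN2D), the stress protein GADD45A and the retinoblastoma protein RB1. They were chosen by gene symbol, with earlier results of these data known. All 9 were found among 13661 genes in the deposited table, and all 9 passed the filter on low counts with 12720 genes. The data come from HEK293 (ATCC CRL-1573), an established human embryonic kidney cell line, treated with DMSO vehicle for 12 h. Their cytoplasm was run on sucrose gradients, in which an mRNA sediments further the more ribosomes are on it, and collected as monosomes, light polysomes and heavy polysomes. The 9 vehicle libraries are 3 fractions from each of 3 biological replicates, called gradients 1, 2 and 3 below, and each replicate number also has its own batch label. The 9 libraries of cells given 100 µM minocycline are not analysed here.

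MDM2 is the ubiquitin ligase that sends p53 for destruction, and its gene is itself switched on by p53, which closes a feedback loop. MDM4 is a relative that binds p53 and pairs with MDM2. CDKN1A (p21), CDKN1B (p27) and CDKN1C (p57) form the CIP/KIP family, which binds cyclin-kinase complexes, while CDKN2C (p18) and CDKN2D (p19) are ankyrin-repeat proteins of the INK4 family, which bind CDK4 and CDK6. These inhibitors keep RB1 in the form that restrains E2F transcription factors. HEK293 cells carry adenovirus E1A and E1B genes, whose products are known to bind RB1 and p53.

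The libraries held between 13447139 and 24441159 reads assigned to genes. Light polysome library 2 stood apart: its mean correlation across genes was 0.894 with the other light libraries and 0.940 with the heavy ones (Pearson r on the log2 scale), against 0.985 between light libraries 1 and 3. The mitochondrially encoded mRNAs took 3.87% of monosome reads in gradient 2, and 26.01% and 19.5% in gradients 1 and 3. All 8 genes fixed as markers of the line, among them NEFL, NEFM and VIM, were kept, with means of 105 to 8795 reads per library. Of 12 markers of other cell types, 8 were not in the table and the other 4 had means of 10.7 to 47.7 reads. Each library was scaled by the authors to the same typical gene, so a share or a load here is relative to other genes and does not measure how much RNA a fraction held. In such bulk samples, fewer cells with an mRNA and less of it per cell cannot be told apart.

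Ribosomes load near the 5′ end of an mRNA and scan to the start codon, so the start codon region of 5 members is shown. The windows are read 5′ to 3′ from GENCODE 29 transcripts (GRCh38), 30 bases from 12 before the start codon. Capitals mark the ATG and the bases at positions -3 and 4, counted with the A of the ATG as the first base.
MDM2: tgatccaggCaaATGTgcaataccaacatg
MDM4: ttcactaccAaaATGAcatcattttccacc
CDKN1A: gcggcaggcGccATGTcagaaccggctggg
CDKN1B: cccgggagaAagATGTcaaacgtgcgagtg
RB1: cggaaaggcGtcATGCcgcccaaaaccccc
An A or G at position -3 and a G at position 4 are the textbook marks of a strong start context. Of the 9 members 8 had A or G at position -3, as did 86.2% of the 12462 genes with a usable leader, and MDM2 was the exception. A G at position 4 stood in 1 of 9, CDKN2C, against 53.02% of those genes.

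The members also differed in their untranslated leaders and coding lengths, read from 1 principal transcript per gene. Coding lengths were alike for CDKN1A (495), GADD45A (498), CDKN2D (501) and CDKN2C (507 nt). CDKN1B had 597 nt, CDKN1C 951, MDM4 1473, MDM2 1476 and RB1 2787, beside a median of 1407 over the genes kept. The leader of CDKN2C (chromosome 1, 50960745 to 50974633, plus strand) was 2034 nt with 13 upstream ATGs in the longest of its 3 principal transcripts and 425 nt with 5 in the shortest. CDKN1B (chromosome 12, 12715058 to 12722371, plus strand) had a leader of 716 nt with 1 upstream ATG, whose reading frame closed before the main start. GADD45A (chromosome 1, 67685061 to 67688338, plus strand) had 434 nt with 3 upstream ATGs, and MDM4 (chromosome 1, 204516379 to 204558120, plus strand) 162 nt with 2. MDM2 (chromosome 12, 68808176 to 68850686, plus strand) had 89 nt with 1 in the principal transcript and 302 nt with 2 in the transcript with the longest coding region. At least 1 upstream ATG stood in 6 of the 9 principal transcripts used, against 53.3% of 12698 genes, and in none of those of CDKN1C, CDKN2D and RB1. CDKN1A is among the 6 through the transcript used, as its 5 principal transcripts had leaders of 70 to 235 nt with 0 to 1 upstream ATGs. Which transcripts these cells use was not measured.

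The mRNAs of both p53 inhibitors had their largest mean share in the monosome fraction, which holds mRNAs with a single ribosome. In gradient 2 MDM4 had 42.0% in monosomes and 42.5% in light polysomes, and MDM2 had 48.4% in monosomes. MDM4 had normalized counts (reads divided by the size factor of the library) of 2290, 1035 and 5831 in monosome libraries 1, 2 and 3. Its light polysome values were 1772, 1046 and 1557, and its heavy values 225, 383 and 282. Every heavy value lay under every light and monosome value, while light and monosome values overlapped. Its share was 57.2% ± 17.3 in monosomes, 34.7% ± 12.5 in light and 8.15% ± 6.44 in heavy polysomes (SD, n = 3). MDM2 had 4319, 1973.5 and 4334 in monosomes, 2368, 1178 and 2645 in light and 901, 925 and 917 in heavy polysomes. The heavy values were alike in the 3 gradients and lay below all others, and the monosome and light values were lowest in gradient 2. Its shares were 53.4% ± 4.4 in monosomes, 31.2% ± 2.3 in light and 15.4% ± 6.3 in heavy polysomes, and the authors' deposited table places it in the strict monosome class. MDM4 has no class there, being listed as mixed.

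**Figure D1:**
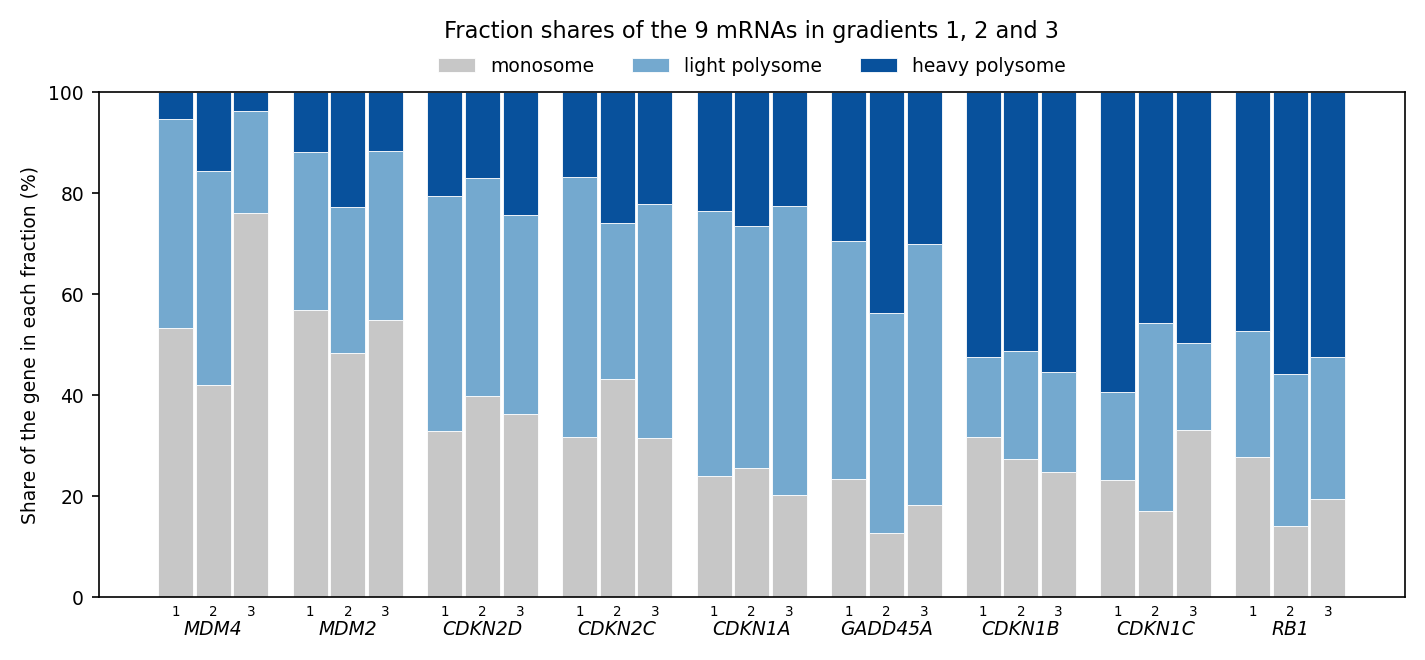
Share of each mRNA in monosomes (grey), light polysomes (light blue) and heavy polysomes (dark blue), in percent of its normalized count over the 3 fractions of a gradient; the 3 bars of a gene are gradients 1, 2 and 3. MDM4 and MDM2 have the largest monosome shares of the 9 mRNAs (means of 57.2% and 53.4%), and CDKN1B, CDKN1C and RB1 have means over 51% in heavy polysomes.

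Mean ribosome load (MRL) sums these shares after weighting them: 1 for the monosome share, 2.5 for the light and 6 for the heavy one. The median gene had an MRL of 3.17, 3.17 and 3.16 in gradients 1, 2 and 3. The MRL of MDM4 was 1.88, 2.41 and 1.49 in gradients 1, 2 and 3, and that of MDM2 was 2.06, 2.57 and 2.08. Both were lower than the median gene in 3 of 3 gradients and highest in gradient 2. On the log2 scale MDM4 lay at -0.74 from the median gene (SE 0.12, adjusted p = 0.000947 by limma), and MDM2 at -0.51 (SE 0.10, adjusted p = 0.00217). Both passed under each of the 11 alternatives tried for this test. Within gradients, MDM2 exceeded MDM4 by 0.18, 0.15 and 0.59 MRL units, a mean of 0.31 ± 0.25 (SD, n = 3).

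The heavy over monosome contrast gave the same direction for both. MDM4 was lower in heavy polysomes by a log2 difference of -3.05 (SE 0.51, adjusted p = 0.000401 by limma) and MDM2 by -1.86 (SE 0.41, adjusted p = 0.00244). MDM4 was also lower in heavy than in light polysomes (-2.29, SE 0.51, adjusted p = 0.0077 by limma), and MDM2 there had -1.09 (SE 0.41, adjusted p = 0.0565), which passed with the gradient as a block (0.036). That call of MDM4 was lost without gradient 1 (-1.96, adjusted p = 0.157 by limma) and without gradient 3 (-2.21, adjusted p = 0.0659). Neither MDM4 nor MDM2 was called between light polysomes and monosomes over the 9 libraries. MDM4 had -0.75 there (SE 0.51) and MDM2 -0.77 (SE 0.41). With RPM, where libraries are scaled to their total reads, they had 0.44 and 0.42, below the median of all genes (1.05). Without gradient 2 limma called both lower in light polysomes, MDM4 at -1.14 (adjusted p = 0.0249) and MDM2 at -0.79 (adjusted p = 0.0194). The heavy over monosome call of MDM2 was lost without gradient 1 (adjusted p = 0.0667 by limma). It was also lost with RPM (-0.58, adjusted p = 0.225 by limma), where the median of all genes was 1.17. Exons of an antisense gene and of the neighbour CPM on the opposite strand cover 5.91% and 1.00% of the MDM2 exons, and a processed pseudogene on the same strand 3.31%; how the authors' counting treated such reads is not given.

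The CIP/KIP inhibitors split between fractions. CDKN1B (p27), which holds cells in the quiescent state, had heavy polysome values of 1416, 1436 and 1198, against 858, 768 and 536 in monosomes and 429, 599 and 431 in light polysomes. Every heavy value exceeded every value of the other fractions, and the light values were the lowest in each gradient. Its shares were 52.98% ± 2.1 in heavy polysomes, 27.96% ± 3.5 in monosomes and 19.1% ± 2.9 in light polysomes. It was higher in heavy than in light polysomes by a log2 difference of 1.48 (SE 0.32, limma adjusted p = 0.00741) and higher than in monosomes by 0.93 (SE 0.32, adjusted p = 0.0264). Its MRL of 3.86, 3.88 and 4.07 exceeded that of the median gene in each gradient, by a mean log2 difference of 0.31 (SE 0.08, limma adjusted p = 0.00921). The MRL and heavy over monosome calls were lost without gradient 1 (adjusted p = 0.101 and 0.18) and without gradient 3 (0.075 and 0.241), and the MRL call also with the percentage in polysomes in place of MRL (0.542). Its heavy over light call by limma was likewise lost without gradient 1 (1.37, adjusted p = 0.203) and without gradient 3 (1.49, adjusted p = 0.0966).

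CDKN1C (p57), the imprinted member of the family, was on the same side with fewer reads. Its heavy polysome values were 340, 127 and 162, its monosome values 134, 47.4 and 108 and its light values 99.9, 103 and 56.0. The heavy value was the highest of its gradient in all 3, and the heavy values lay above all light values but overlapped those of monosomes. The monosome library of gradient 2 gave only 20 reads for it. Its MRL of 4.22, 3.84 and 3.74 was higher than that of the median gene in each gradient, with a mean log2 difference of 0.31 (SE 0.09, limma adjusted p = 0.0165), a call lost without gradient 1 (0.218) and with the percentage in polysomes in place of MRL (0.315). Heavy over monosome (1.11, SE 0.46, adjusted p = 0.0587) and heavy over light (1.19, SE 0.46, adjusted p = 0.0602) did not pass, and both passed with the gradient as a block (0.0377 and 0.0391).

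CDKN1A (p21), the p53 target that stops the cell cycle after DNA damage, led in light polysomes instead. Its light values were 510, 520 and 728, against 233, 277 and 258 in monosomes and 229, 286 and 285 in heavy polysomes. All light values exceeded all others, and the monosome and heavy values overlapped. Its shares were 52.6% ± 4.6 in light polysomes, 24.1% ± 2.0 in heavy polysomes and 23.3% ± 2.7 in monosomes. At the main settings it was the only member that passed for light over monosome (log2 difference 1.17, SE 0.29, limma adjusted p = 0.0135), with light above monosome in each gradient. It was lower in heavy than in light polysomes (-1.12, SE 0.29, limma adjusted p = 0.0133). Both calls were lost without gradient 1 (adjusted p = 0.194 and 0.248) and without gradient 3 (0.24 and 0.218). Heavy over monosome was 0.05 (SE 0.29, adjusted p = 0.891), and 1.24 and called higher with RPM (0.00355), where the median of all genes was 1.17. An antisense transcript covers 4.79% of the CDKN1A exons.

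The MRL of CDKN1A was 2.97, 3.04 and 2.98, a SD of 0.04 where the median gene kept had a SD of 0.32. It was not called against the median gene (-0.08, SE 0.08, adjusted p = 0.422 by limma). Within gradients CDKN1B exceeded CDKN1A by 0.89, 0.84 and 1.08 MRL units, a mean of 0.94 ± 0.13 (SD, n = 3). CDKN1C exceeded it by 1.26, 0.80 and 0.76. CDKN1C and CDKN1B differed by 0.37, -0.04 and -0.32, so neither led throughout.

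**Figure D2:**
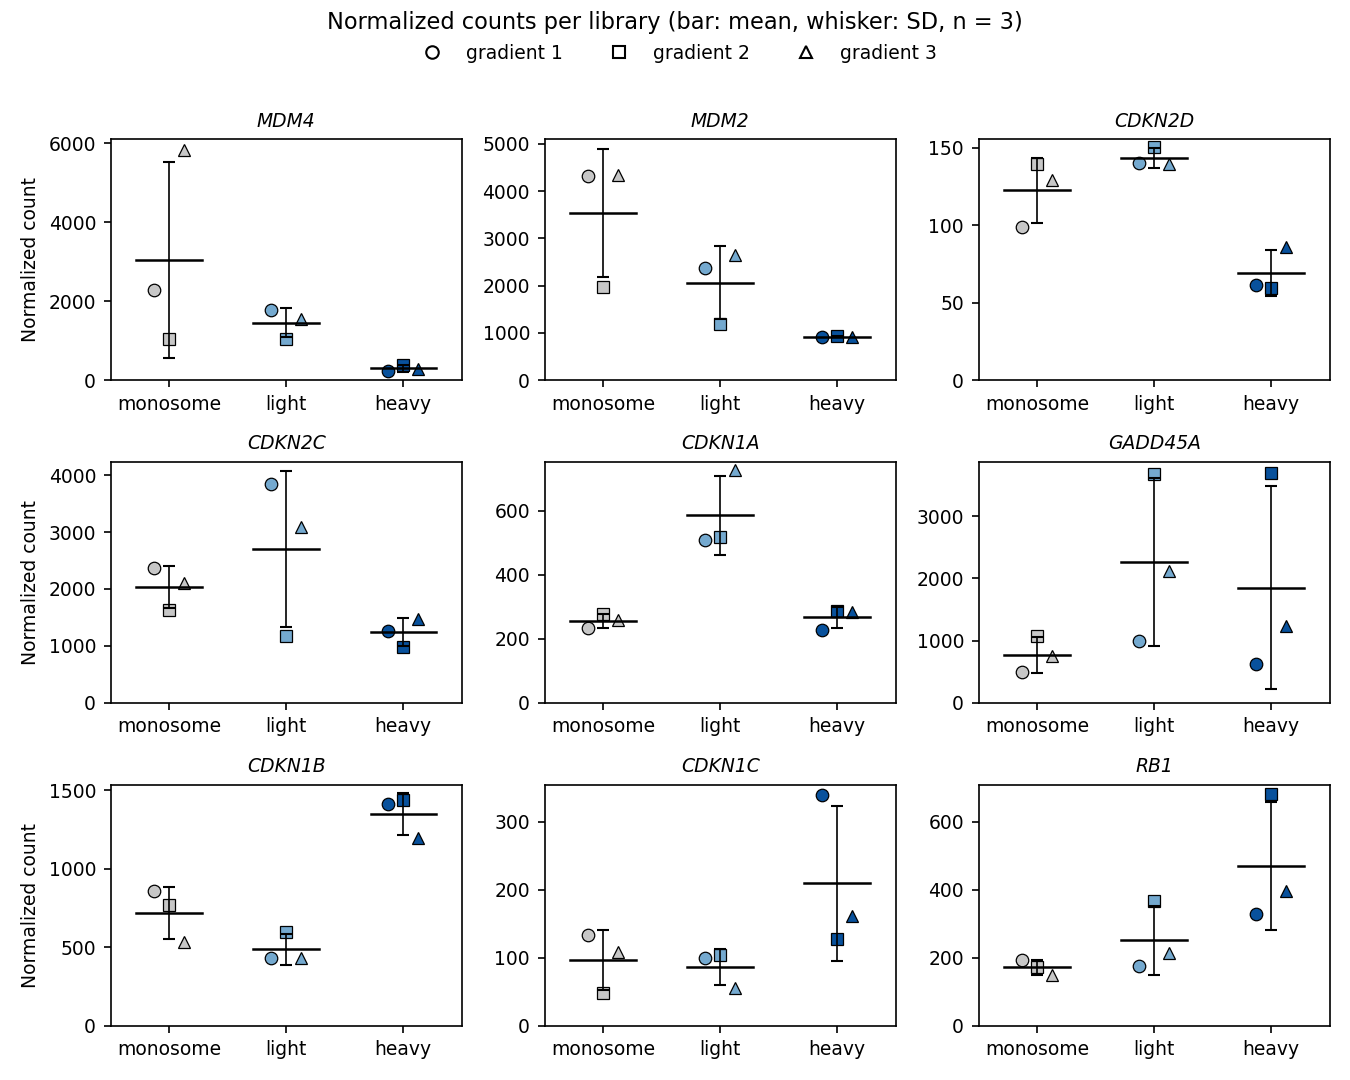
Normalized count of each mRNA in the 9 libraries, by fraction on the x axis and gradient by symbol; horizontal bars are means and whiskers the SD of 3 gradients, and each panel has its own scale starting at 0. CDKN1A is highest in light polysomes and CDKN1B in heavy polysomes in every gradient, while the 3 heavy values of MDM2 lie within 901 to 925.

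Of the INK4 inhibitors CDKN2D was called lower in heavy polysomes. CDKN2C passed in no contrast by limma at its main settings over the 9 libraries, but did under some alternatives given below. CDKN2D (p19) had 99.2, 140 and 129 in monosomes, 140, 151 and 140 in light and 61.4, 59.6 and 86.1 in heavy polysomes. Its heavy values lay below all others, and the light value was the highest in each gradient. Its shares were 43.0% ± 3.6 in light, 36.4% ± 3.5 in monosomes and 20.6% ± 3.6 in heavy polysomes. It was lower in heavy than in light polysomes (-1.06, SE 0.31, adjusted p = 0.0211 by limma) and than in monosomes (-0.83, SE 0.31, adjusted p = 0.0409). With RPM the latter difference was 0.36 and not called, where the median of all genes was 1.17. Its MRL of 2.72, 2.497 and 2.80 was lower than the median gene by limma (log2 difference -0.25, SE 0.09, adjusted p = 0.0456), a call lost without any 1 of the gradients (0.0729 to 0.226). The heavy over monosome call was likewise lost without each gradient (0.0827 to 0.206), and the heavy over light call without gradient 1 (0.285) or 3 (0.156).

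CDKN2C (p18) had 2368, 1639 and 2104 in monosomes, 3846, 1177 and 3084 in light and 1255, 982 and 1478 in heavy polysomes. Light polysomes led in gradients 1 and 3, and monosomes led in gradient 2, where the light library was the one that stood apart. The heavy values lay below all monosome values. Its MRL was 2.61, 2.76 and 2.80, a log2 difference of -0.22 from the median gene (SE 0.09, limma adjusted p = 0.06), negative in each gradient. This difference passed with a filter at a mean of 50 reads (adjusted p = 0.0422 by limma) and with RPM (0.0476). Heavy over light was -0.98 (SE 0.43, limma adjusted p = 0.0922), and it passed at -1.49 (adjusted p = 0.00177) without light polysome library 2. It also passed over all libraries by edgeR (-1.16, adjusted p = 0.0493) and by DESeq2 (-1.15, adjusted p = 0.0207). Without all of gradient 2, CDKN2C was called lower by limma in MRL (adjusted p = 0.0105) and in heavy over monosome (-0.71, adjusted p = 0.0236). Over all libraries with RPM, heavy over monosome was 0.55 and not called, where the median of all genes was 1.17. The difference from CDKN2D in MRL was -0.11, 0.26 and 0.00 in gradients 1, 2 and 3, smaller than its spread.

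RB1, the pocket protein that the inhibited kinases phosphorylate, had 194, 173 and 149 in monosomes, 174, 367 and 214 in light and 329, 683 and 398 in heavy polysomes. Every heavy value exceeded every monosome value. Heavy and light values overlapped only in that the light value of gradient 2 (367) lay above the heavy value of gradient 1 (329). Its shares were 51.8% ± 4.4 in heavy, 27.7% ± 2.5 in light polysomes and 20.5% ± 6.9 in monosomes. It was higher in heavy polysomes than in monosomes, with a log2 difference of 1.38 (SE 0.36, limma adjusted p = 0.00684), or with an adjusted p of 0.055 without gradient 3. Heavy over light was 0.90 (SE 0.36, adjusted p = 0.0705), and 1.21 (adjusted p = 0.0093) without light polysome library 2. Its MRL of 3.73, 4.24 and 4.04 was the highest mean of the 9 at 4.005 ± 0.26, and its log2 difference from the median gene was 0.34 (SE 0.08, limma adjusted p = 0.00789), positive in each gradient. That call was lost when the percentage in polysomes, light plus heavy, took the place of MRL (adjusted p = 0.095).

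GADD45A, a p53 target that binds PCNA and stress kinases, differed in level between gradients. It had 498, 1071 and 754 in monosomes, 995, 3685 and 2117 in light and 625, 3699 and 1234 in heavy polysomes. Gradient 2 had the highest value in every fraction, and the fractions overlapped. Its shares were 47.4% ± 4.0 in light, 34.4% ± 8.1 in heavy polysomes and 18.2% ± 5.4 in monosomes. Light over monosome was 1.42 (SE 0.59, adjusted p = 0.112 by limma) and heavy over monosome 0.94 (SE 0.59, adjusted p = 0.202). Both passed with the gradient as a block (0.0162 and 0.0433), and the monosome value was the lowest in 3 of 3 gradients. Light over monosome also passed by DESeq2 (1.52, adjusted p = 0.0349), but not by edgeR (1.58, adjusted p = 0.0762). By limma it passed without gradient 2 (1.24, adjusted p = 0.0233). Its MRL of 3.18, 3.84 and 3.28 was not called (log2 difference 0.11, SE 0.09, limma adjusted p = 0.324).

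**Figure D3:**
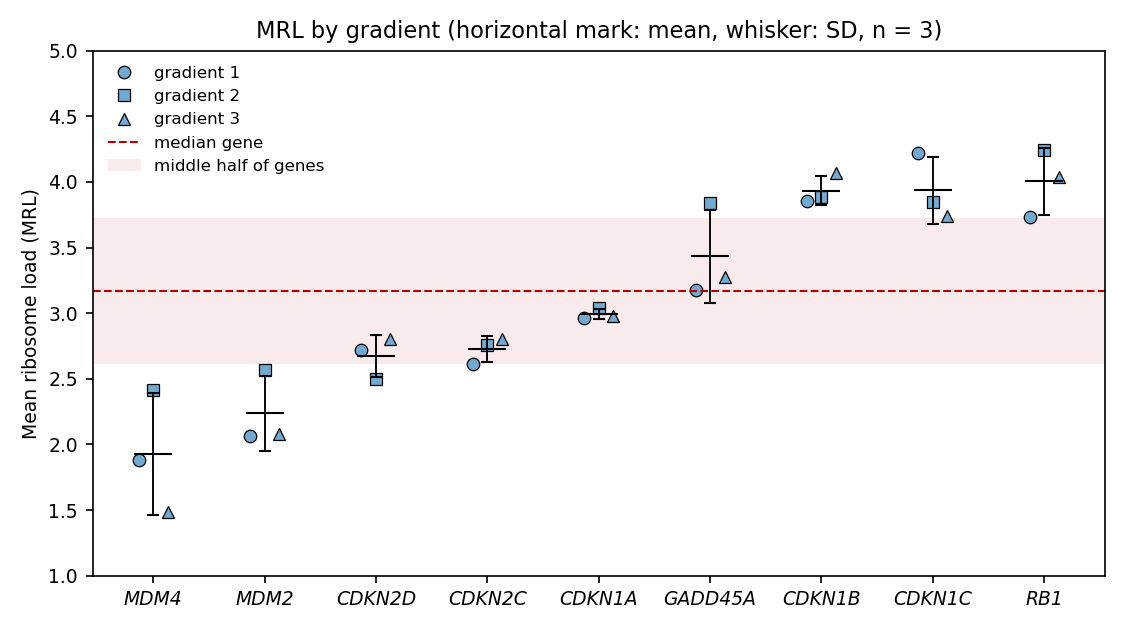
MRL of each mRNA by gradient (symbols), with the mean and SD of 3 gradients; the dashed line is the median gene and the shaded band the range between the quartiles of the genes kept. MDM4 and MDM2 lie below the band on average (1.93 and 2.24), CDKN1B, CDKN1C and RB1 above it (3.93, 3.94 and 4.005).

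By mean MRL the order from the top was RB1 (4.005), CDKN1C (3.94), CDKN1B (3.93), GADD45A (3.43), CDKN1A (3.00), CDKN2C (2.72), CDKN2D (2.67), MDM2 (2.24) and MDM4 (1.93). Neighbours in this order were taken to differ where the difference had 1 sign in all gradients and its mean exceeded its SD, which held for 4 of 8 pairs. These were CDKN1B over GADD45A, GADD45A over CDKN1A, CDKN1A over CDKN2C and MDM2 over MDM4. RB1, CDKN1C and CDKN1B were not separated from each other, nor CDKN2C from CDKN2D, nor CDKN2D from MDM2. With 3 gradients an exact sign-flip test cannot go below p = 0.25, so no test was made of this order.

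Across the members, MRL was called higher for 3 of 9 and lower for 3 of 9, beside 22.2% higher and 26% lower (48.2% in all) over the 12720 genes. For heavy over monosome 2 were higher and 3 lower, beside 24.7% and 24.4% (49.1% in all). For light over monosome 1 was higher and none lower, beside 8.47% and 10.2% (18.7% in all). For heavy over light 1 was higher and 3 lower, beside 14.7% and 17.5% (32.2% in all). These shares rest on few members and are no result about them as a set. The number of heavy over light calls varied with the gradient left out. Without gradient 1 limma called 0 genes and 0 members (2490 genes and 3 members at an unadjusted p under 0.05). Without gradient 3 it called 1 gene and 0 members, and without gradient 2 it called 7651 genes and 8 members. Leaving out light polysome library 2 alone gave 6423 genes and 8 members. On all libraries edgeR and DESeq2 called 7 members each. The cause of this variation was not tested. Scaling to library totals (RPM) in place of the authors' size factors moved the median log2 difference of all genes from 0.13 to 1.17 for heavy over monosome and from 0.04 to 1.05 for light over monosome. Its calls were 7715 higher and 1087 lower, and 7283 higher and 373 lower, in those contrasts. Among the members it added higher calls in heavy over monosome for CDKN1A (1.24), CDKN1C (2.03) and GADD45A (2.18). MDM2 and CDKN2D lost their lower calls there. In light over monosome it added higher calls for CDKN2C (1.45), CDKN2D (1.24), GADD45A (2.58) and RB1 (1.53). The median MRL of the members was 3.00, against 3.21 over all genes kept.

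**Figure D4:**
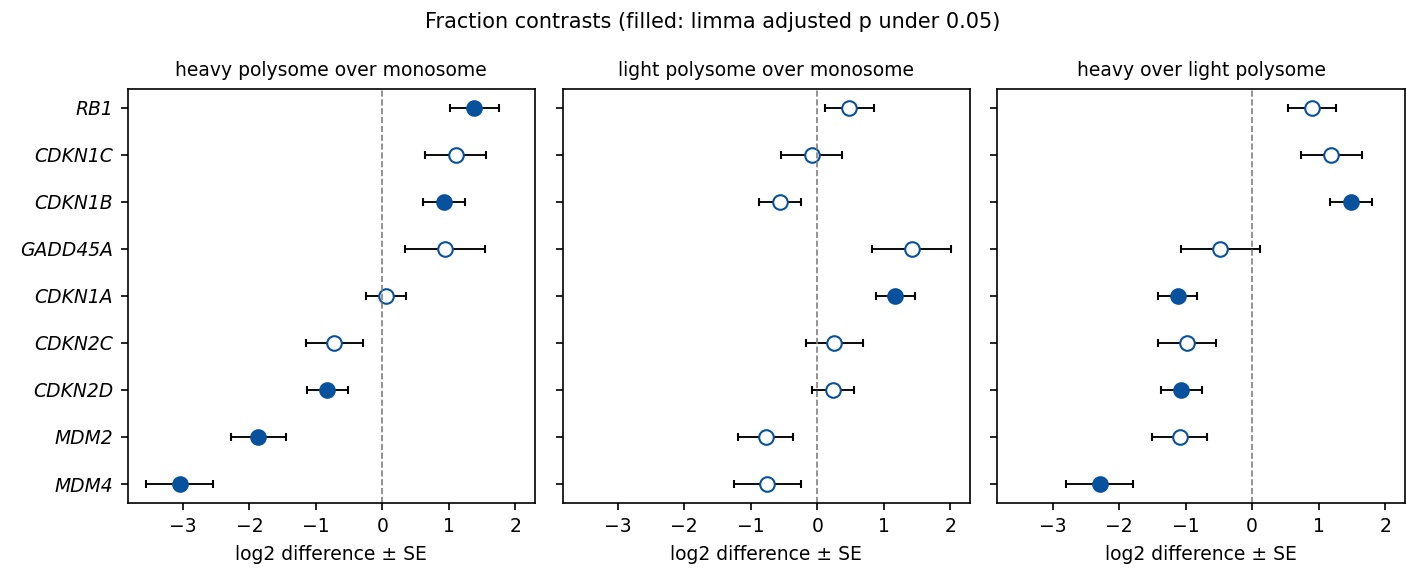
Log2 difference between fractions with its standard error for each mRNA, from limma on log2(normalized count + 1); filled points have an adjusted p under 0.05. MDM4 has the lowest heavy over monosome difference (-3.05), CDKN1A is the only filled point for light over monosome (1.17), and CDKN1B the only filled point above zero for heavy over light (1.48).

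Median MRL differed between classes of coding length (1.99 to 3.37), and the members were placed among genes of similar length as a description. Genes with 301 to 600 nt of coding sequence (1330 genes) had a median MRL of 2.55. In that class CDKN1B stood at percentile 96.8, GADD45A at 87.9, CDKN1A at 73.8, CDKN2C at 59.2 and CDKN2D at 56.9. Among all genes kept, CDKN1A stood at percentile 40.3 and CDKN2D at 27.2, below the middle. MDM2 and MDM4 belong to the 4744 genes with 1201 to 2400 nt, where the median was 3.32, and stood at percentiles 9.72 and 4.13. RB1 stood at percentile 91.2 among 2760 genes over 2400 nt, and CDKN1C at 80.1 among 3612 genes with 601 to 1200 nt.

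**Figure D5:**
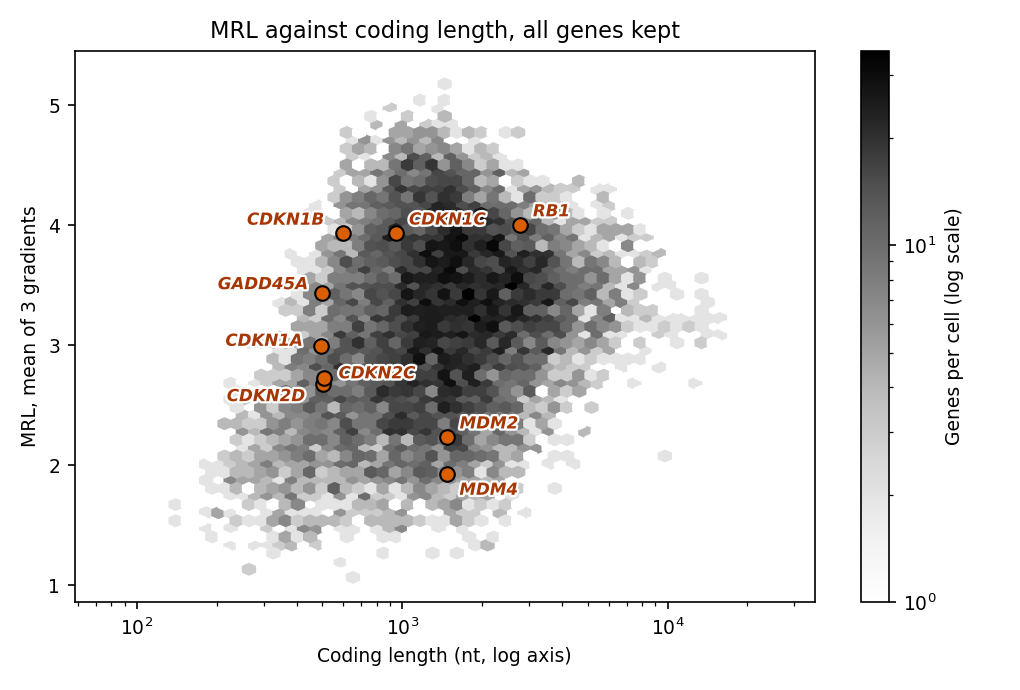
Mean MRL of 3 gradients (y axis) against coding length (x axis, log scale) for the genes kept (grey cells, darker with more genes) and the 9 mRNAs (orange). CDKN1A, CDKN2C, CDKN2D and GADD45A have coding lengths of 495 to 507 nt but lie between 2.67 and 3.43, and MDM2 and MDM4 lie low among genes of 1201 to 2400 nt.

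The genes with the most similar pattern were found by Euclidean distance over the 9 percentages, 3 fractions in 3 gradients. CDKN1B was nearest to LMNA (nuclear lamins A and C, 6.58 percentage points), SCRIB and SLC1A4, where its median distance to all genes was 54.5. MDM2 was nearest to ZNF432 (7.35), NIPA1 and SLC30A5, with a median of 62.2. MDM4 had no gene closer than TUB at 12.5. CDKN1A was nearest to MRPS16, a mitochondrial ribosomal protein (7.14), and RB1 to ACTN1, an actin crosslinker (5.52).

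The rest of the pathway was described through 4 lists, whose counts of MRL calls stand beside the 22.2% higher and 26% lower over all genes kept. Of 29 p53 target genes 27 were in the table and kept, with a median MRL of 3.05. Of these 5 were higher and 5 lower than the median gene by limma, and 0 and 4 without gradient 1. SESN2 (4.11 ± 0.17, SD, n = 3) and SESN1 (4.09 ± 0.38), stress-induced inhibitors of mTORC1, were the highest. CCNG2 (2.03 ± 0.23), a cyclin G, and TRIAP1 (2.07 ± 0.14) were the lowest, near MDM2.

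Among 21 regulators of p53 the median MRL was 3.61, with 7 higher and 2 lower. Without gradient 1 these were 2 and 0, and without gradient 3 they were 3 and 1. NCL (nucleolin) had 4.32 ± 0.17 and USP7, which removes ubiquitin from MDM2 and p53, had 4.28 ± 0.24. The ubiquitin ligase RCHY1 had 2.56 ± 0.14 and the damage kinase ATM 2.61 ± 0.19. Both of these were lower than the median gene (adjusted p = 0.0105 and 0.0178 by limma).

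The RB family and E2F list of 19 genes had a median of 3.13, with 4 higher and 4 lower, or 0 and 2 without gradient 1 and 2 and 2 without gradient 3. RBBP7 (4.50 ± 0.38) and RBBP4 (3.97 ± 0.36), histone-binding partners of RB1, were the highest. The transcription factors E2F4 (2.16 ± 0.35) and E2F1 (2.29 ± 0.27), which RB1 and its relatives restrain, were the lowest, with 52.2% and 50.005% in monosomes. The last list held 15 other CDK inhibitors and proteins of their turnover, with 2 higher and 7 lower and a median of 3.12. Without gradient 1 the calls were 0 higher and 4 lower. DDB1 (4.06 ± 0.44) and CUL1 (4.02 ± 0.08), parts of cullin ubiquitin ligases, were the highest. CDKN3 (1.85 ± 0.36), a phosphatase of CDKs, and the INK4 inhibitor CDKN2B (1.96 ± 0.21) were the lowest. CDKN2A, the remaining INK4 gene, had 2.54 ± 0.07 and was named after its value was seen.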

How the data were processed

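RNA from 3 gradient fractions of 3 vehicle-treated HEK293 replicates was sequenced from 1 end (75 nt). Per the submitters' processing notes, reads were counted with featureCounts on GRCh38; for aligner, annotation and strand the sources used here give nothing. The deposited table holds normalized counts (a signal unit: reads divided by a library size factor, in which 100% of values came back as whole reads within 0.01), the authors' percent of each gene per fraction, and the authors' MRL score, which equals those percentages weighted 1, 2.5 and 6. The authors' table codes fractions by letters, and A was read as monosome from its own class columns. The design allowed for raw counts; the unit found led to limma. ERCC spike-ins were not used. Libraries held 13447139 to 24441159 reads, and no interval on counting error was needed beside the replicate spread.

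Genes with a mean of at least 10 reads and reads in each gradient were kept (12720 of 13661). Fractions were compared with limma 3.58.1 (R 4.3.3) on log2(normalized count + 1) over all 9 libraries, so low genes' differences are understated. The model held the fraction only and did not pair the fractions of a gradient. The gradient as a block was an alternative. Log2 MRL minus that of the median gene of its gradient was tested against 0 with limma over 3 gradients. The variance trend there follows the mean count, chosen after a test on simulated data; the trend on the difference is an alternative. P-values were Benjamini-Hochberg adjusted over all genes kept, with a threshold of 0.05. edgeR 4.0.16 and DESeq2 1.42.0 on the recovered reads, other scalings, filters, pseudocounts and left-out gradients were alternatives. Replicate numbers pair fractions by origin, as the design text says each replicate was split; same-numbered libraries' deviations correlated at -0.539 to 0.391.

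The members and lists were chosen with earlier results of these data known. All members are named, with up to 3 nearest genes each and the 2 highest and 2 lowest of each list by MRL. Transcripts and coordinates are from GENCODE 29 (GRCh38). The minocycline libraries are not analysed here. Figures were drawn with matplotlib 3.10.9.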

Additional observations from a re-analysis of the deposited data

How the results depend on the processing

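Leaving out 1 gradient at a time gave 3054 to 7710 genes and 3 to 6 members called for MRL against the median gene, 3137 to 7814 and 2 to 6 for heavy over monosome, 562 to 4507 and 0 to 4 for light over monosome, and 0 to 7651 and 0 to 8 for heavy over light. The heavy over light calls fell to 0 genes without gradient 1 (2490 at an unadjusted p under 0.05 by limma) and 1 without gradient 3 (3100). Without light polysome replicate 2, heavy over light gave 6423 genes and 8 members. The percentage in polysomes in place of MRL called 3917 genes and 3 members, MDM2, MDM4 and GADD45A (adjusted p = 0.0443 by limma, higher). CDKN1B, CDKN1C and RB1, the members called higher for MRL, and CDKN2D lost their calls there, and CDKN1A lay 7.69 percentage points above the median gene (adjusted p = 0.141 by limma, not called). With the replicate block, limma called 6274, 2424 and 4302 genes, and 7, 2 and 6 members, for heavy over monosome, light over monosome and heavy over light; the members gained are named beside their results and none was lost. Light over monosome gave 2 members by DESeq2, CDKN1A and GADD45A. With RPM scaling (to library totals) it gave 7656 genes and 5 members, with a median of 1.05 over all genes. There MDM2 was at 0.42, MDM4 at 0.44, CDKN1B at 0.62 and CDKN1C at 0.88. Heavy over monosome with RPM was 0.55 for CDKN2C and 0.36 for CDKN2D, beside a median of 1.17 over all genes. CDKN1C in light over monosome ranged from -0.68 to 0.35 when 1 gradient was left out, and was 0.09 without gradient 1. Heavy over light gave 7 members by edgeR and 7 by DESeq2. Centring on the mean gene gave 3669 higher and 2869 lower for MRL (56.1% higher, against 46.1%). MDM4 kept its call under each alternative for MRL and heavy over monosome, and MDM2 for MRL. For MRL, CDKN2D lost its call in 7 alternatives, with adjusted p of 0.0523 to 0.338. With that percentage the MRL calls (higher, lower) were 2 and 4 for p53 targets, 4 and 0 for p53 regulators, 1 and 3 for the RB and E2F list, and 0 and 3 for other CDK inhibitors. The number of separated neighbours in the order of members was 3 to 6 over its alternatives. Unless stated above, the cause was not tested. CDKN1C, with as few as 20 reads, and CDKN2D, with 46, had the fewest reads in a library.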
